A study of Danio rerio with 6 samples.

Results

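The genes described here make sterols and fatty acids. They were chosen by symbol, as the rows of the count table whose names begin with those of the enzymes of cholesterol synthesis, its sensors and the low-density lipoprotein (LDL) receptors, and of fatty acid synthesis, desaturation, elongation and activation. The rule took 46 of the 11016 rows. Of these, 37 passed the filter on low counts and were tested. The symbols scaper and ldlrad4a were taken by their letters alone and belong to neither pathway. A further 24 protein-coding RefSeq symbols that the rule would take have no row, among them fasn, acaca, scd, srebf1, insig1, scap, sqleb and msmo1, and are not analysed here.

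The cells compared were 2 populations of zebrafish (Danio rerio) cells, sorted by flow cytometry from wild-type larvae at 5 days post fertilization, all carrying the transgene Tg(pnp4a:PALM-mCherry), in which the promoter of the purine enzyme gene pnp4a drives a membrane-bound red protein. Iridophores, the crystal-bearing reflective pigment cells, were enriched by that red signal in 3 biological replicates. The control was a general cell population sorted from larvae of the same line, also in 3 replicates, and about 20000 cells went into each sample. Whether red cells were gated out of the control, and how many larvae were pooled, is not stated in the labels.

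Vertebrate cells build cholesterol from acetyl-CoA through mevalonate, isoprenoid units and squalene, and finish it by a series of steps on the sterol rings. Sterol-regulated transcription factors of the SREBP family switch on these enzymes and the LDL receptor when membrane cholesterol falls. Fatty acids also start from acetyl-CoA, and are then desaturated, elongated in the endoplasmic reticulum and activated to acyl-CoA. Liver and intestine are major sites of both routes, and pigment cells need both lipids for their organelle membranes.

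Library totals were 616439 to 1686552 counts in iridophores and 1612637 to 3282480 counts in control cells, so that 3 counts stood for 1.69 to 5.50 and for 0.897 to 1.79 CPM (counts scaled to a common library size). Library sizes for CPM were adjusted with TMM factors (trimmed means of log ratios between libraries). Of 10 tested iridophore markers, 9 were called higher, and crip2 was not called (log2 fold change 0.28). The log2 fold change of pnp4a was 7.29 (SE 0.36), but its promoter drove the signal used for sorting, so it is no independent marker. That of tfec was 5.49 (SE 0.36). Some markers of other cells also differed. Of the tested markers, 7 of 8 of skeletal muscle were called higher and 4 of 4 of erythrocytes lower. For exocrine pancreas 4 of 7 were lower, and for xanthophores 2 of 3 were higher and 1 lower. Over all tested genes, 22.1% were called higher and 17.8% lower. Calls were fewer for melanophores (1 of 5 higher), photoreceptors (1 of 4 higher) and epidermis (1 of 4 lower). None was called of 6 neuron and 3 oligodendrocyte and Schwann cell markers. The pancreas sums overlapped, at 5356 to 10026 CPM in iridophores and 6146 to 27675 CPM in control cells. The summed CPM of 9 intestinal markers was 18959, 7730 and 6355 in iridophore replicates 1, 2 and 3, against 23952, 18997 and 19115 in control replicates 1, 2 and 3, and 4 of 8 tested were called lower, with log2 fold changes from -2.34 (npc1l1) to 1.45 (apobb.1, not called). For 10 hepatocyte markers the sum ranged from 418 to 961 CPM in iridophores and from 668 to 1014 CPM in control cells, and 3 of 9 tested were called lower. The median log2 fold change of those 9 was -1.06, with a range from -1.49 (tfa) to 0.03 (apoa2). The hepatocyte genes fabp10a and apoa2 were not called, at -0.04 and 0.03. Both fgg and cp had 0 counts in iridophore replicates 1 and 2, and 15 and 5 counts in replicate 3. In sorted bulk samples, fewer cells of a type and less RNA per cell cannot be told apart.

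Many genes of sterol-making enzymes were lower in iridophores, and several fatty acid elongation genes were higher. Of the 37 tested members, 15 were called lower, or 40.5%, against 17.8% of all 6849 tested genes. Another 6 were called higher, or 16.2%, against 22.1% of all genes. Calls in either direction made up 39.9% of all genes. A call is an adjusted p under 0.05 from the quasi-likelihood test of edgeR, with Benjamini-Hochberg adjustment over all tested genes. The median log2 fold change of the members was -0.81, against 0.01 over all genes. Among the 15 lower calls, 11 held in every one of 14 alternative fits: acat2, hmgcs1, mvda, sqlea, cyp51, nsdhl, dhcr7, fads2, hsd17b12a, acsl1b and acsl5. Among the 6 higher calls, only elovl5 held in all 14. The library names of replicates 2 and 3 share a middle part that the name of replicate 1 lacks, in both groups. Within replicates 2 and 3 alone, 17 of 37 tested members were called lower and 4 higher. Of all 7251 genes tested in that fit, 1468 were called lower and 1703 higher. Replicate 1 has a single library per group and allows no test.

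**Figure D1:**
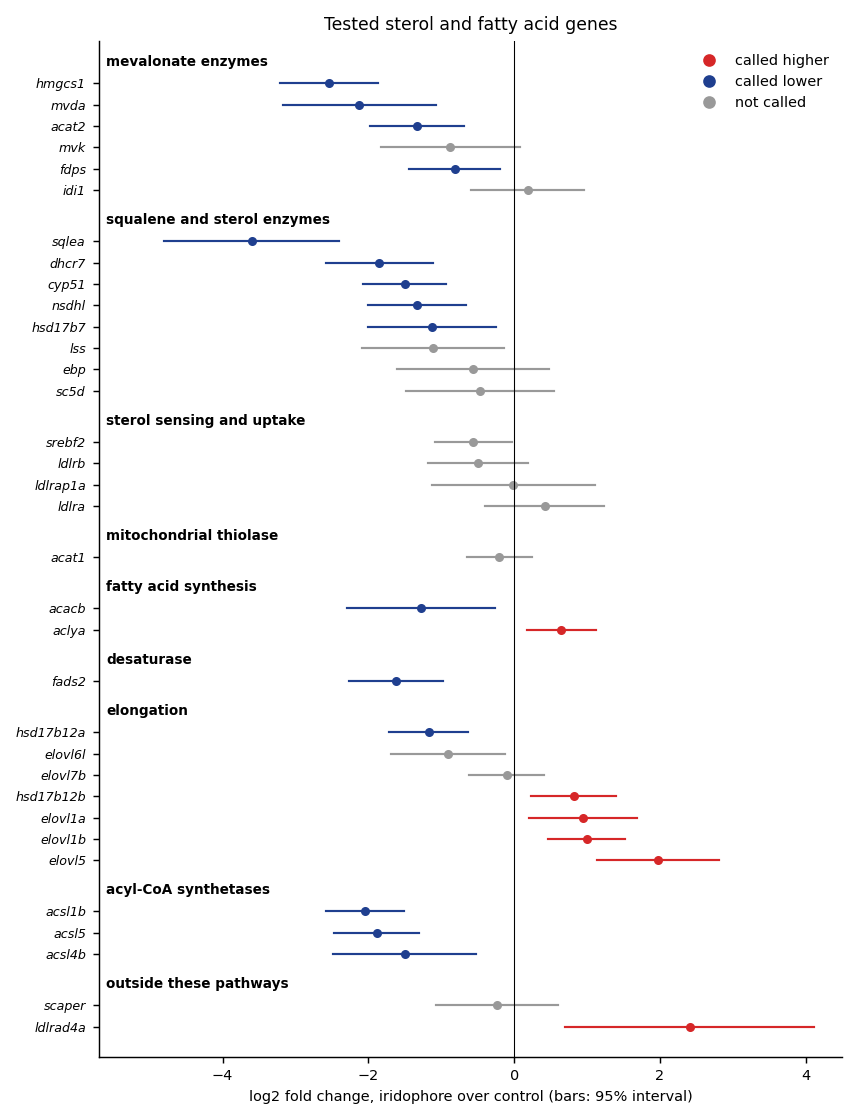
Log2 fold change of 34 of the 37 tested members, iridophore over control, grouped by role (points: edgeR estimate; bars: 95% interval; colours: called higher, called lower or not called). The cholesterol enzymes drawn lie left of 0 except idi1, and the genes called higher are mostly elongation genes.

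From acetoacetyl-CoA to cholesterol, the rule took 20 rows of the cholesterol route. The sterol reductase gene lbr was not among them and was called higher (2.84, adjusted p 0.00197 in edgeR). Of the 17 tested among these 20 rows, 9 were called lower (52.9%, against 17.8% of all genes) and 0 higher (against 22.1%). A log2 fold change below 0 was found for 16 of the 17 (94.1%, against 49.3% of all tested genes). Their median was -1.12. Their summed level was 281 ± 57.9 CPM in iridophores and 697 ± 32.9 CPM in control cells (SD, n = 3 each). Per library the sum was 344, 231 and 268 CPM in iridophore replicates 1, 2 and 3. Beside it, replicate 1 had the highest intestinal and the lowest hepatocyte marker sum of the 3, and replicate 2 had more of both sums than replicate 3 but less of the route. The gene fabp1b.1 made up 12863, 4687 and 3582 CPM of the intestinal sum in iridophore replicates 1, 2 and 3. Single intestinal markers differed: vil1, cdh17 and npc1l1 were lower in replicate 2 than in replicate 3. The genes fabp1b.1, apoa4b.1, apoa1a, fabp6, apobb.1 and fabp2 were higher in replicate 2. Single hepatocyte markers also differed. In iridophore replicate 2, fabp10a and apoa2 made up 319 and 501 CPM of the hepatocyte sum, against 144 and 327 CPM in replicate 3. The genes tfa and serpina1 were slightly higher in replicate 2, and serpina1l, fgb, fga, fgg, cp and ambp were lower. The part of intestinal and liver cells in these differences was not tested.

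**Figure D2:**
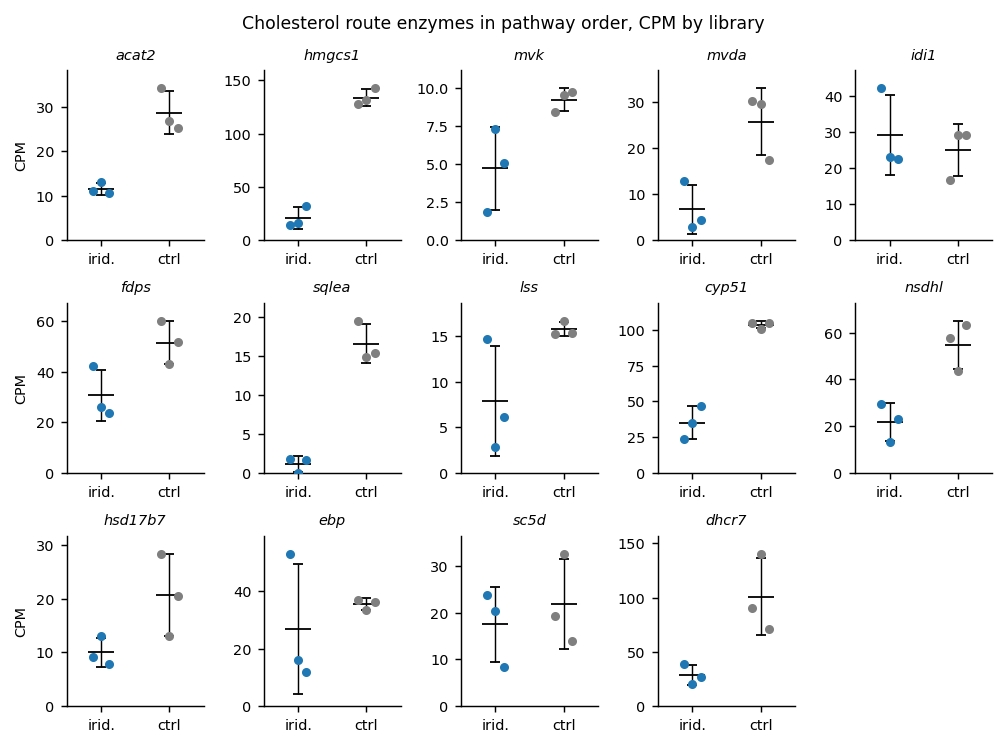
CPM of 14 of the 17 tested cholesterol route enzymes in pathway order (points: libraries, replicates 1 to 3 from left to right, iridophores left and control right; dash and bars: mean and SD, drawn from 0 upward). Iridophore hmgcs1 lies between 14.7 and 32.6 CPM, below every control library.

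Among the mevalonate enzymes, hmgcs1 had the largest log2 fold change. The gene hmgcs1, whose enzyme makes HMG-CoA, had 14.7, 15.97 and 32.6 CPM in iridophore replicates 1, 2 and 3, against 128, 132 and 143 CPM in control replicates 1, 2 and 3. All iridophore libraries lay far under all control libraries. The log2 fold change was -2.55 (SE 0.30, adjusted p 0.000163 in edgeR), and it became -3.15 without iridophore replicate 3. The gene acat2, for the cytosolic thiolase that condenses acetyl-CoA, had 11.0, 13.1 and 10.7 CPM in iridophores and 34.1, 26.8 and 25.1 CPM in control cells. The groups did not overlap, with a log2 fold change of -1.33 (SE 0.29, adjusted p 0.00526 in edgeR). Its mitochondrial relative acat1, which serves ketone and isoleucine metabolism, overlapped between the groups at 91.6 to 112 CPM in iridophores and 109 to 130 CPM in control cells and was not called (-0.20, SE 0.20, adjusted p 0.452 in edgeR).

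Later mevalonate enzymes differed unevenly. The gene mvda, for the decarboxylase that yields isopentenyl diphosphate, had 12.8, 2.90 and 4.499 CPM in iridophores (7, 2 and 8 counts) and 30.2, 29.8 and 17.4 CPM in control cells. Every iridophore library lay under the lowest control library (log2 fold change -2.12, SE 0.47, adjusted p 0.00563 in edgeR). Farnesyl diphosphate synthase, fdps, had 42.1, 26.1 and 23.6 CPM in iridophores and 59.8, 42.9 and 51.8 CPM in control cells. The highest iridophore value came close to the lowest control value, with a log2 fold change of -0.81 (SE 0.28, adjusted p 0.0415 in edgeR). Leaving out iridophore replicate 2 or 3 or control replicate 1 or 3 ended the call (adjusted p 0.0863 to 0.160 in edgeR). Mevalonate kinase, mvk, was not called (-0.88, 95% interval -1.83 to 0.08). The isomerase gene idi1 was the exception in sign, at 42.1, 23.2 and 22.5 CPM in iridophores and 16.8, 29.2 and 29.2 CPM in control cells. Its groups overlapped (0.18, 95% interval -0.59 to 0.96, adjusted p 0.702 in edgeR).

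Squalene epoxidase adds the oxygen that lets squalene close into rings and is another control point of the route. Of its genes, sqlea was close to undetected in iridophores, and sqleb has no row. Counts of sqlea were 1, 0 and 3 in iridophores, against 65, 25 and 30 in control cells, or 19.4, 14.9 and 15.4 CPM. All iridophore libraries were at or under the floor of 3 counts per library, and against the mean of those floors sqlea was at least 4.31-fold lower (adjusted p 0.000628 in edgeR); its fitted value, which is no bound, was -3.60 and became -4.28 without iridophore replicate 3. Lanosterol demethylase, cyp51, had 23.8, 34.8 and 46.7 CPM in iridophores and 105, 101 and 105 CPM in control cells. The control libraries were nearly equal and the iridophore libraries all lay below them, with a log2 fold change of -1.50 (SE 0.26, adjusted p 0.00137 in edgeR). The gene nsdhl, for a sterol decarboxylase, had 29.3, 13.1 and 23.1 CPM in iridophores and 57.7, 43.5 and 63.1 CPM in control cells (-1.33, SE 0.30, adjusted p 0.00639 in edgeR). For dhcr7, whose enzyme makes cholesterol from 7-dehydrocholesterol, iridophores had 38.5, 20.3 and 26.4 CPM and the control 90.6, 140.5 and 71.3 CPM. The control spread was wide, yet no libraries crossed (-1.85, SE 0.33, adjusted p 0.00173 in edgeR).

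The remaining ring enzymes were weaker or uncalled. Reads of hsd17b7, for the sterol ketone reductase known from mammals, stood at 9.16, 13.1 and 7.87 CPM in iridophores and 28.4, 13.1 and 20.5 CPM in control cells. Replicates 2 of the groups were all but equal, and the call (-1.13, SE 0.39, adjusted p 0.0432 in edgeR) was lost when any library except control replicate 2 was left out (adjusted p 0.0540 to 0.169 in edgeR). Lanosterol synthase, lss, had 14.7, 2.90 and 6.19 CPM in iridophores (8, 2 and 11 counts) and 15.3, 16.7 and 15.4 CPM in control cells. It fell just outside the threshold (-1.12, SE 0.44, adjusted p 0.0664 in edgeR) and was called without iridophore replicate 1 (-1.63, adjusted p 0.0107 in edgeR). Over the fits without 1 library, lss ranged from -1.63 to -0.83. The sterol isomerase gene ebp was at 53.1, 15.97 and 11.8 CPM in iridophores and 37.1, 33.3 and 36.4 CPM in control cells. Its log2 fold change of -0.57 (adjusted p 0.366 in edgeR) became -1.44 without iridophore replicate 1 (adjusted p 0.00316 in edgeR). Over the fits without 1 library, ebp ranged from -1.44 to -0.12. The desaturase gene sc5d was not called (-0.47, 95% interval -1.49 to 0.55).

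Of 4 tested genes of sterol sensing and uptake, none was called in either direction by edgeR, against 39.9% of all genes. At an unadjusted p under 0.05 in edgeR, srebf2 alone passed, against 3335 of all 6849 tested genes. A set of 4 genes is too small to set these counts apart from the shares over all genes. The transcription factor gene srebf2, which activates the sterol enzymes, had 33.0, 23.2 and 28.7 CPM in iridophores and 43.1, 39.3 and 42.6 CPM in control cells. Iridophore libraries were all lower, but the log2 fold change of -0.56 (SE 0.24) had an adjusted p of 0.0837 in edgeR. It was called without iridophore replicate 1 (-0.67, adjusted p 0.0469 in edgeR) and with upper-quartile factors (-0.72, adjusted p 0.0327 in edgeR). Those factors also moved the median of all genes to -0.14, against 0.01 as reported. Over the fits without 1 library, srebf2 ranged from -0.71 to -0.46. The LDL receptor gene ldlra had 29.3, 10.16 and 24.7 CPM in iridophores and 12.9, 17.3 and 19.0 CPM in control cells, so iridophore replicate 2 was lowest and the other iridophore libraries highest (0.42, 95% interval -0.39 to 1.23). Its copy ldlrb ranged from 11.6 to 19.7 CPM in iridophores and from 18.5 to 26.2 CPM in control cells (-0.50, 95% interval -1.18 to 0.18). The receptor adaptor gene ldlrap1a was uncalled at -0.01 (95% interval -1.13 to 1.102).

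Of the 13 tested fatty acid members, 6 were called lower (46.2%, against 17.8% of all genes) and 5 higher (38.5%, against 22.1%). In the supply of building blocks, aclya, for the lyase that turns citrate into cytosolic acetyl-CoA, had 58.6, 49.4 and 62.4 CPM in iridophores and 37.7, 35.7 and 35.9 CPM in control cells. The groups did not overlap (0.65, SE 0.21, adjusted p 0.0340 in edgeR), but the call was lost when iridophore replicate 3 or any control replicate was left out (adjusted p 0.0918 to 0.181 in edgeR) and with DESeq2 (adjusted p 0.0942). The acetyl-CoA carboxylase gene acacb, whose mammalian product makes malonyl-CoA at mitochondria, was low throughout, at 1, 3 and 10 counts in iridophores and 26, 22 and 25 counts in control cells. That is 1.83, 4.36 and 5.62 CPM against 7.78, 13.1 and 12.8 CPM (-1.27, SE 0.45, adjusted p 0.0478 in edgeR), and the call was lost when any library except control replicate 1 was left out (adjusted p 0.0655 to 0.118 in edgeR).

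**Figure D3:**
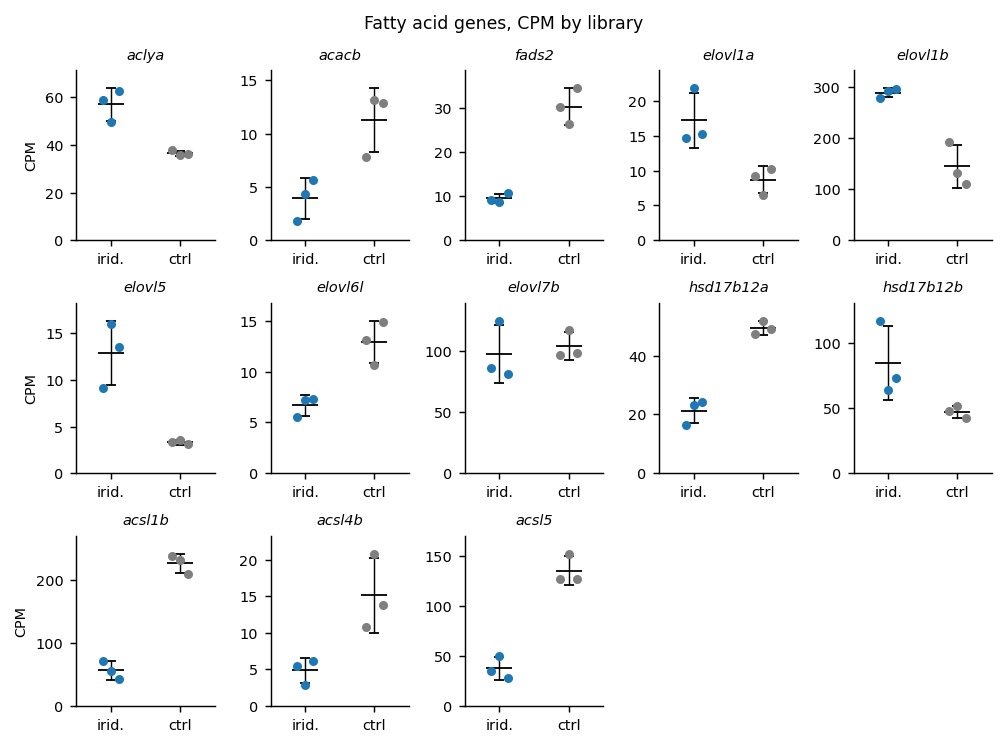
CPM of the 13 tested fatty acid genes (points: libraries, replicates 1 to 3 from left to right, iridophores left and control right; dash and bars: mean and SD). All 3 iridophore libraries lie above all control libraries for elovl1a, elovl1b, elovl5, hsd17b12b and aclya. They lie below them for fads2, acsl1b, acsl5, acsl4b, acacb, hsd17b12a and elovl6l. The share of all tested genes without overlap is not given, so these positions are description only.

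Of 7 tested elongation genes, 4 were called higher (57.1%, against 22.1% of all genes) and 1 lower (14.3%, against 17.8%), with a median of 0.82. The elongase gene elovl5, which extends polyunsaturated chains, had 9.16, 15.97 and 13.5 CPM in iridophores and 3.29, 3.57 and 3.08 CPM in control cells. These values rest on few counts, 5, 11 and 24 in iridophores and 11, 6 and 6 in control cells. The log2 fold change of elovl5, 1.97 (SE 0.38, adjusted p 0.00257 in edgeR), was the largest among the pathway members called higher. Reads of elovl1b, one of a pair of genes for the elongase of saturated very long chains, stood at 278, 292 and 295 CPM in iridophores and 192, 132 and 110.2 CPM in control cells. The iridophore libraries lay close together and all above the control (0.99, SE 0.24, adjusted p 0.00833 in edgeR), yet the call was lost without control replicate 2 or 3 (adjusted p 0.0641 and 0.0592 in edgeR). Its copy elovl1a had 14.7, 21.8 and 15.2 CPM in iridophores and 9.27, 6.55 and 10.3 CPM in control cells. The fold was similar (0.94, SE 0.33, adjusted p 0.0456 in edgeR), but the call was lost when any 1 of the 6 libraries was left out (adjusted p 0.0536 to 0.201 in edgeR). The elovl6l gene was just outside the threshold on the lower side, at 5.50 to 7.31 CPM in iridophores and 10.7 to 14.9 CPM in control cells (-0.91, adjusted p 0.0628 in edgeR; with upper-quartile factors -1.06, adjusted p 0.0339), and elovl7b overlapped between the groups (-0.10, 95% interval -0.62 to 0.41).

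The paralogs hsd17b12a and hsd17b12b, for the ketoacyl reductase of the elongation cycle as known from mammals, went opposite ways. The a copy had 16.5, 23.2 and 24.2 CPM in iridophores and 47.3, 51.8 and 49.2 CPM in control cells, a log2 fold change of -1.17 (SE 0.24, adjusted p 0.00407 in edgeR). The b copy had 117, 63.9 and 73.1 CPM in iridophores and 47.9, 51.8 and 42.6 CPM in control cells, a log2 fold change of 0.82 (SE 0.26, adjusted p 0.0310 in edgeR). The call of the b copy, unlike that of the a copy, was lost when any library except iridophore replicate 2 was left out (adjusted p 0.0571 to 0.134 in edgeR). Within each library, the log2 ratio of a over b was -2.74, -1.41 and -1.55 in iridophores and -0.02, 0.00 and 0.20 in control cells. Scaling between libraries cancels in this ratio apart from the prior count of 2, and the copies were about equal in control cells and unequal in every iridophore library. The mean ratio differed by -1.96 (two-sided exact permutation p 0.1, the smallest that 3 against 3 allows, 0.2 adjusted over the 4 pairs with both copies tested). For ldlra over ldlrb the difference was 0.81, also without overlap (exact permutation p 0.1, adjusted 0.2). The elovl1 pair overlapped between the groups, with a difference of -0.13 (exact permutation p 0.7).

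**Figure D4:**
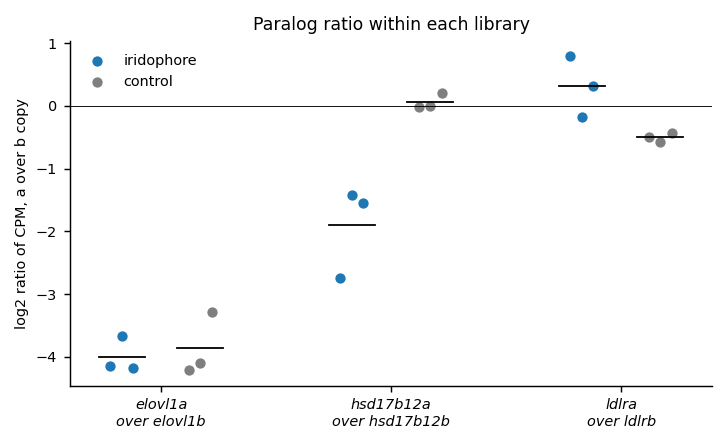
Log2 ratio of the a copy over the b copy within each library for 3 paralog pairs (points: libraries, iridophores left and control right; lines: means). The hsd17b12 ratios lie at -2.74 to -1.41 in iridophores and at -0.02 to 0.20 in control cells.

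The 1 tested desaturase gene and the 3 tested acyl-CoA synthetase genes were called lower (100% of each set, against 17.8% of all genes). Both sets are small. The desaturase gene fads2, whose zebrafish enzyme makes polyunsaturated fatty acids, had 9.16, 8.71 and 10.7 CPM in iridophores and 30.2, 26.2 and 34.4 CPM in control cells. No libraries crossed between the groups (-1.62, SE 0.29, adjusted p 0.00173 in edgeR), though the iridophore values rest on 5, 6 and 19 counts. Of 5 rows for long-chain acyl-CoA synthetases, acsl3b and acsl6 were untested, and acsl3b averaged 2.66 CPM in iridophores and 0.44 CPM in control cells. The gene acsl1b had 71.4, 55.2 and 42.2 CPM in iridophores and 239.6, 232 and 211 CPM in control cells (-2.05, SE 0.24, adjusted p 0.000158 in edgeR). For acsl5 the values were 34.8, 49.4 and 27.6 CPM in iridophores and 127, 152 and 127 CPM in control cells (-1.89, SE 0.26, adjusted p 0.000394 in edgeR). No library of either gene crossed into the other group. The gene acsl4b, whose mammalian product prefers arachidonic acid, had 5.50, 2.90 and 6.19 CPM in iridophores (3, 2 and 11 counts) and 10.8, 20.8 and 13.8 CPM in control cells. It was called lower (-1.50, SE 0.44, adjusted p 0.0211 in edgeR), and lost its call without iridophore replicate 2 or control replicate 2 (adjusted p 0.0660 and 0.0567 in edgeR). The intestinal markers, 4 of 8 called lower with a median of -1.13, stand beside these genes, and their part was not tested.

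Of the symbols taken by their letters, ldlrad4a was called higher on few counts (4, 7 and 14 in iridophores; 0, 4 and 6 in control cells), a call lost when any library except control replicate 3 was left out (adjusted p 0.0508 to 0.120 in edgeR), with a log2 fold change of 2.41. That value was 1.53 without control replicate 1 and 3.11 when control replicate 3 was left out. The gene scaper was not called. The 9 untested members include fdft1, pmvk_1, elovl2, elovl4a, elovl7a_1, acsl3b, acsl6 and ldlrap1b. With no filter none of the 9 was called by edgeR.

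Around the members, a list of 210 genes of lipid handling was read from the same fit. Of 108 tested, 48 were called lower (44.4%, against 17.8% of all genes) and 14 higher (13%, against 22.1%), with a median of -0.72. Fatty acid oxidation held the largest block, with 16 of 23 lower and 1 higher and a median of -0.96. The carnitine palmitoyltransferase genes cpt1ab and cpt2, which bring fatty acids into mitochondria, fell by 2.14 and 1.94 on the log2 scale, and the peroxisomal hsd17b4 by 1.73. The isomerase gene eci1 rose by 3.00, to 27.1 ± 10.9 CPM in iridophores against 3.05 ± 2.24 CPM in control cells (SD, n = 3 each).

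Glycerolipid synthesis had 8 of 18 lower (44.4%, against 17.8% of all genes) and 2 higher (11.1%, against 22.1%). The triglyceride-making acyltransferase genes dgat2, mogat2 and dgat1a fell by 2.09, 2.04 and 1.95, while the phospholipid acyltransferase genes agpat4 and lpcat1 rose by 3.06 and 2.69. Absorptive intestinal cells also use such enzymes, and 4 of 8 tested intestinal markers were lower as given above; their part was not tested. Among genes of sterol use, cyp7a1, for the rate-limiting enzyme of bile acid synthesis in liver, fell by 1.73, and cyp46a1.1, of an oxysterol enzyme family known from mammalian brain, fell by 1.15. Among sterol carriers and exporters, 6 of 14 tested were lower (42.9%, against 17.8%) and 2 higher (14.3%, against 22.1%). Of these, erlin1 fell by 1.96, osbpl2b fell by 1.93 and abca1b fell by 1.64. The genes npc2 and pltp, of lysosomal and plasma lipid transfer, rose by 5.33 and 7.47. Their control counts were few, at 6, 5 and 1 for npc2 and 3, 3 and 5 for pltp. In iridophores they were 25, 66 and 130 for npc2 and 130, 223 and 599 for pltp. The summed level of the 17 rows of this role was 456, 605 and 638 CPM in iridophores and 308, 364 and 393 CPM in control cells.

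Sphingolipid synthesis was the role with a positive median, 1.21, with 4 of 10 tested called higher (40%, against 22.1% of all genes) and 3 lower (30%, against 17.8%). The gene sptlc2a, for a catalytic subunit of serine palmitoyltransferase that starts sphingolipid synthesis, stood at 49, 123 and 272 counts in iridophores and 40, 17 and 15 counts in control cells. That is 140.4 ± 45.7 CPM against 9.92 ± 2.14 CPM (log2 fold change 3.80, SE 0.32, adjusted p 1.809e-05 in edgeR). The small subunit gene sptssa rose by 2.41 and the sphingomyelin synthase gene sgms1 by 2.93. Another catalytic subunit gene of serine palmitoyltransferase, sptlc3, fell by 1.64, degs2 by 1.13, and fa2h was at least 1.80-fold lower. Without iridophore replicate 1, sptlc3 fell by 2.41 and degs2 fell by 1.74. Over the fits without 1 library, sptlc3 ranged from -2.41 to -1.21 and degs2 from -1.74 to -0.86. Fitted values of fa2h ranged from -3.00 to -1.52 over the same fits. Sphingolipids take the very long chains that ELOVL1 makes in mammals, which is background and was not tested here.

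The other roles were mixed. In the elongation and activation partners, the fatty acid binding protein genes fabp3 and fabp7a rose by 5.28 and 5.01, fabp3 mostly in iridophore replicate 2 (14, 127 and 44 counts in iridophores, against 5, 5 and 3 counts in control cells; 3.68 without that library), and fabp7a by 5.62 without control replicate 3. Skeletal muscle, which also uses FABP3 in mammals, had summed marker levels of 12140 to 14769 CPM in iridophores and 5932 to 7030 CPM in control cells, and its part was not tested. The transporter and synthetase gene slc27a2a fell by 1.83, and hacd2 and tecrb, for the dehydratase and reductase that finish an elongation cycle, fell by 1.05 and 0.80. The list placed lbr, a sterol reductase of the nuclear envelope, with the mevalonate and prenyl branches, though it makes no prenyl product. It rose by 2.84, on 10, 5 and 16 counts in iridophores and 5, 3 and 2 counts in control cells. In the prenyl branches pdss1, pdss2 and coq2 of ubiquinone synthesis fell by 1.66, 1.095 and 1.15. The NADPH-making malic enzyme genes me3 and me1 fell by 1.98 and 1.53, and me3 fell by 3.27 without iridophore replicate 3. Among lipid regulators, nr1h4, nr0b2a and ppargc1a fell by 1.79, 1.66 and 1.78 and mid1ip1b rose by 0.74. In lipid droplets, g0s2 and pnpla3 fell by 1.17 and 0.79, and lipg rose by 1.18.

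Of the 40 lipid list genes named above, 24 held their call in all 14 alternatives. The calls of lipg and mid1ip1b were lost when any 1 of 5 libraries was left out, those of degs2 and ppargc1a with any 1 of 4, and those of fa2h, me1 and cyp46a1.1 with any 1 of 3 (adjusted p 0.0520 to 0.225 in edgeR). Those of coq2, g0s2, sptlc3 and tecrb were lost with either of 2 libraries and those of abca1b, erlin1, hacd2, nr1h4 and pdss2 with 1 (adjusted p 0.0503 to 0.116 in edgeR).

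**Figure D5:**
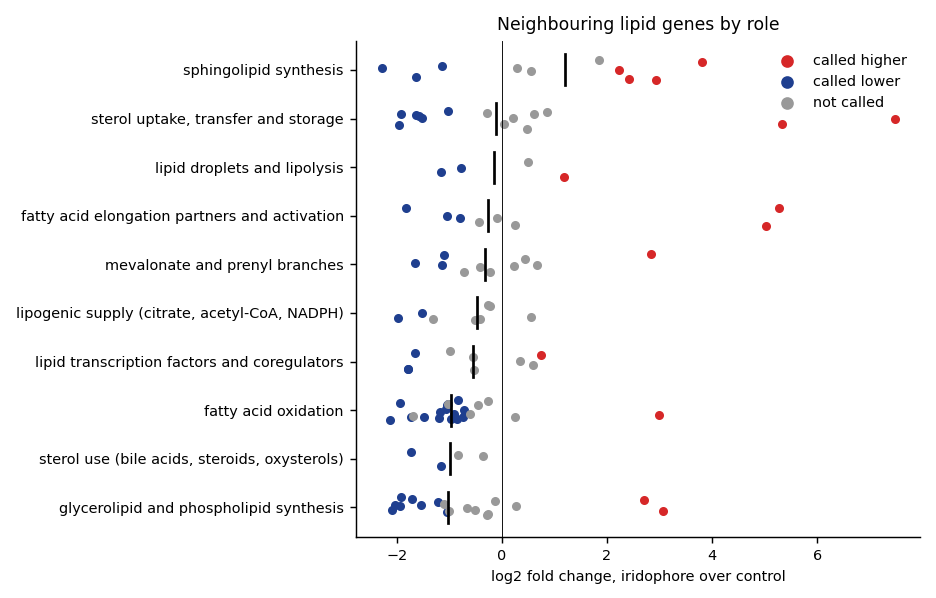
Log2 fold change, iridophore over control, of the 108 tested genes of the lipid list by role (points: genes, coloured by call; black lines: role medians). Sphingolipid synthesis has the only median above 0, at 1.21, and fatty acid oxidation lies around -0.96.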

How the data were processed

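RNA was measured in 6 sorted samples by bulk MARS-seq, a 3′-end method, per the labels' protocols. The deposited table holds raw counts per gene symbol, whole numbers the authors had not normalized. Per the submitters' processing notes, cutadapt, STAR 2.5.2b, HTSeq, DESeq2 1.36.1 and the build danRer11 were used; the annotation and the use of molecular identifiers are not given in the sources used here. Since molecular identifiers are not stated, the floor of 3 counts covers counting error only. The table has 0 columns without a sample, and 45 of the 46 members matched a RefSeq symbol (assembly GRCz12tu, names only).

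Counts were fitted with edgeR 4.0.16 in R 4.3.3: default filter (minimum count 10, minimum total 15), TMM factors, quasi-likelihood F test with group as the only term, Benjamini-Hochberg adjustment over 6849 genes, threshold 0.05. The standard error is the absolute log2 fold change over the root of F. Paralog ratios use log2 CPM with a prior count of 2. Alternatives were relative log expression or upper-quartile factors, library size alone, DESeq2 1.42.0, no filter, a replicate block, the shared part of the library names as a term, replicates 2 and 3 only, and leaving out each library. The fit was tested on simulated counts.

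Members and lists were chosen with earlier results of these data known. Library values are given for the 14 called members with the largest change among those with at least 20 CPM in a group and for fixed step enzymes, and the lipid list is named by up to 3 called genes per role and direction; per-library values of other members were added after they were seen. Replicates were no repeats of 1 library: their counts gave a chi-square of 2.48 to 15.2 for each degree of freedom. A few members enter the counts and medians, but their own values are not reported here or drawn.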

Additional observations from a re-analysis of the deposited data

How the results depend on the processing

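The median log2 fold change of the tested members stayed between -0.99 and -0.69 in the 14 alternative fits, and no called member reversed. The number of members called lower ranged from 11 to 18 (15 as reported), and that of all genes from 860 to 1514 (1217 as reported). The number called higher was less stable: 6 as reported, 3 with upper-quartile factors, 3 with no filter, and 1 to 4 when 1 library was left out (1 without control replicate 2; 2 without control replicate 1 or 3 or iridophore replicate 3; 3 without iridophore replicate 1; 4 without iridophore replicate 2). The cause was not tested. Over all genes, the number called higher was 1513 as reported, 1793 with no filter and 1248 to 1704 when 1 library was left out. Upper-quartile factors moved the median of all genes to -0.14, against 0.01 as reported (-0.07 with library size alone, -0.06 with no filter, and -0.09 to 0.03 over the fits without 1 library), and under them aclya, elovl1a and hsd17b12b lost their calls while lss, elovl6l and srebf2 gained one. The split of calls over all genes then became 1315 higher and 1514 lower, against 1513 and 1217 as reported.

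With the replicate block, 5 members were called higher and 15 lower (1584 and 1387 of all 6849 genes), and only elovl1a lost its call (edgeR adjusted p 0.0692). The names of same-numbered libraries differ between the groups only in their first part, and the labels do not explain the rest. Same-numbered libraries deviated together with correlations of 0.32, 0.07 and 0.17. These values cannot settle whether the samples were paired, and the main fit had group as its only term. Across the groups, replicates 2 and 3 of unlike number also deviated together (0.12 and 0.12). Replicate 1 and replicates 2 and 3 gave -0.24 to -0.15. Deviations from a group mean cancel out over its 3 libraries, so these values and those among replicates 2 and 3 follow in part from the 0.32. The library names split the same way, but these correlations cannot test that split. With the shared part of the names as a term, 1674 genes were called higher and 1467 lower, and 6 members higher and 15 lower. Depth limits the weakly expressed members most, since 3 counts stood for 5.50 CPM in iridophore replicate 1.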
